A study of Mus musculus with 4 samples.

Results

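Vasomotor tone in the lung is set by mediators that ECs make and that ECs or neighbouring mural cells receive. The genes described here were 8 listed members of these pathways, Edn1, Ece1, Ednra, Nos3, Ptgs1, Ptgs2, Ptgis and Ace, out of 20076 gene symbols in the deposited matrix. They were chosen by name, and all 8 were present. Whole lung was profiled by single-cell RNA-seq in 4 libraries, each from 1 mouse of the C57/BL6 strain, to ask how the cells of the lung differ when the ETS transcription factor ERG is deleted from endothelium. The 2 WT mice carried ERG fl/fl alleles without Cre. In the 2 ERG CKO mice, labelled CDH5-CreER(T):ERG fl/fl, the same alleles were combined with a tamoxifen-inducible Cre that is driven from the endothelial Cdh5 promoter. Both groups received tamoxifen, 5 daily injections of 0.5 mg, and lungs were taken 90 days later. The age of the mice is not given in the labels.

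Endothelin-1, encoded by Edn1, is made as a precursor and cut to its active form by endothelin converting enzyme (Ece1). It contracts smooth muscle and pericytes through its type A receptor (Ednra), whereas the type B receptor (Ednrb) of ECs clears it and couples it to vasodilators. Endothelial nitric oxide synthase (Nos3) makes nitric oxide, which acts on the soluble guanylyl cyclase of mural cells. Prostanoids start from arachidonic acid released by the phospholipase Pla2g4a, which the cyclooxygenases Ptgs1 and Ptgs2 turn into prostaglandin H. From there prostacyclin synthase (Ptgis) makes the vasodilator prostacyclin and thromboxane synthase (Tbxas1) the vasoconstrictor thromboxane. Angiotensin converting enzyme (Ace), bound to the luminal face of lung capillaries, makes angiotensin II and breaks down bradykinin.

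The members lie apart in the genome (GRCm38, coordinates of the GENCODE gene models). On the plus strand, Edn1 spans chr13:42301476-42307990, Ece1 chr4:137862237-137965229, Nos3 chr5:24364810-24384474, Ptgs1 chr2:36230426-36252272, Ptgs2 chr1:150100031-150108227 and Ace chr11:105967945-105989964. On the minus strand, Ednra spans chr8:77663031-77724464 and Ptgis chr2:167191805-167240604. Counts cover whole genes, so exons, introns and untranslated parts were not told apart. The Nos3 gene body overlaps Atg9b on the opposite strand.

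Because the deleted factor belongs to the ETS family, which binds around a GGAA core, the 250 bases before the annotated start are shown for Edn1, the ligand, and for the cyclooxygenases Ptgs1 and Ptgs2. They are from RefSeq on GRCm38.p6, plus strand, and run 5′ to 3′. Capitals mark each GGAA and its reverse complement TTCC.
Edn1, chr13:42301226-42301475: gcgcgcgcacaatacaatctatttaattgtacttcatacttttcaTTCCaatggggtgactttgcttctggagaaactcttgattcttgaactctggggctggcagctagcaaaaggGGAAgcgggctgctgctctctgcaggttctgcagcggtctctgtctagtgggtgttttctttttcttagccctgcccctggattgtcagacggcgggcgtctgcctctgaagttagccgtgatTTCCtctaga
Ptgs1, chr2:36230176-36230425: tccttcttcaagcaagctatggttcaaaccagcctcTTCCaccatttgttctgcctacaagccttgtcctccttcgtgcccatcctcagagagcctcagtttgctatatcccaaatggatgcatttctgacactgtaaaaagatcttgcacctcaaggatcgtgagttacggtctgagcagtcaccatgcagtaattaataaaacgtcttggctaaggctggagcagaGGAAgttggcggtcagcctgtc
Ptgs2, chr1:150099781-150100030: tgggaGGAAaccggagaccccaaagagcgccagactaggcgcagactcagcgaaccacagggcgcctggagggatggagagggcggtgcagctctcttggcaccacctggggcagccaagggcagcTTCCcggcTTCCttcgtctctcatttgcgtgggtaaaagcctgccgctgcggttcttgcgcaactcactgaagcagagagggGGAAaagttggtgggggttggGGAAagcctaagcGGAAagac

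The window held 3 GGAA matches on either strand for Edn1, 2 for Ptgs1 and 6 for Ptgs2. Of all 32851 RefSeq windows of this length, 93.4% held at least 1 match, the median was 3 matches, and 18% held 5 or more. The longer ETS word GGAAGT, which contains the core, occurred in 19.7% of windows. It occurred once in the Ptgs1 window, its first base at position -22 from the start, and not in those of Edn1 or Ptgs2. Of the 8 members, 6 had an entry in the table of windows; Nos3 and Ptgis did not. These matches are letters in a window and were not measured as binding sites.

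The matrix held 9363 cells, 1852 to 3097 a library, with 11263911 to 18646776 UMIs a library (each UMI, a unique molecular identifier, stands for 1 RNA molecule caught) and a median of 4611 to 4899 UMIs a cell. Replicate 1 of each group carried Xist and replicate 2 Ddx3y, so sex was balanced between the groups. Cells were clustered and the clusters named from fixed marker lists, and a difference from the study's own naming may come from this. The named classes are gCap-like (general capillary), aCap-like (aerocyte), venous-like, arterial-like and lymphatic-like ECs, mural-like cells, and other lung classes. They are written below without the ending, and "ECs" means all endothelial clusters together. The 4 libraries held 580, 697, 745 and 499 ECs, in the order WT replicate 1, WT replicate 2, ERG CKO replicate 1, ERG CKO replicate 2, an order kept for every list of 4 values. Of these, 442, 496, 401 and 285 were gCap, 43, 72, 107 and 95 aCap, 32, 47, 73 and 20 venous, and 15, 17, 22 and 15 arterial ECs. Levels are in CPM, the UMIs of a gene per 1000000 UMIs of the class in that library.

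The targeted gene was not lower in the libraries labelled ERG CKO. Erg was at 86.0, 88.5, 105 and 82.4 CPM in ECs, and the groups overlapped. In gCap ECs it was at 88.4, 92.3, 101 and 87.8 CPM. A 3′ tag that lies outside the deleted part is still counted after deletion, so this level does not check the label, and every direction given below rests on the labels. A difference between the groups in the aCap markers touches all aCap results. The summed level of 15 aCap markers in aCap ECs was 30364 and 30652 CPM in WT and 11797 and 14894 CPM in ERG CKO, and that of 12 endothelial markers was 25757 and 25597 against 15163 and 15159 CPM. Without alignment of the libraries before clustering, a cluster of 573 cells, of which 306 and 256 came from the ERG CKO libraries, also took the aCap name. The other aCap cluster of that run held 41, 69, 4 and 3 cells, so aCap values without alignment set mostly 1 cluster in WT against another in ERG CKO. Tbxas1 was among the 10 leading genes of the larger one. These values are given below as descriptions and support no call, and the part of the marker difference in the aCap results was not tested.

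Each member had its own order of classes. Edn1 was highest in arterial ECs (mean of the 4 libraries 483 CPM, range 268 to 897), followed by gCap ECs (289 CPM, 192 to 410) and venous ECs (174 CPM, 63.4 to 257), and these neighbours overlapped. In aCap ECs it was at 43.1, 9.36, 10.4 and 5.28 CPM, below all libraries of gCap ECs, and lymphatic ECs held no Edn1 UMI among 25 cells. As a background from free RNA, T cells held 0.412 to 7.35 CPM. Of all 3588 Edn1 UMIs, 78.5% lay in ECs and 59.3% in gCap ECs. Such class orders are descriptions with no test, since the classes come from clustering the same cells.

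Ece1 was spread over all endothelial classes, with means of 739 CPM in venous, 677 in lymphatic, 650 in arterial, 576 in gCap and 462 in aCap ECs. Neighbours in this order overlapped. All were above mural cells (299 CPM, 278 to 323), the first class apart from them, and fibroblasts (250 CPM). Ednra was distributed otherwise. It was at 191, 265, 156 and 460 CPM in mural cells and 131, 113, 83.9 and 172 CPM in fibroblasts, and at 0.742 to 2.36 CPM in ECs, with no UMI in venous or lymphatic ECs. Of its 547 UMIs, mural cells held 39.9% and fibroblasts 51.9%. The enzyme that activates endothelin was thus highest in ECs but was also found under mural and fibroblast names. The type A receptor lay mostly under mural and fibroblast names.

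Nos3 was highest in arterial ECs, at 236, 104, 158 and 112 CPM, with venous ECs at 146, 79.6, 127 and 66.9 CPM and lymphatic ECs at 0 to 207 CPM from 10 UMIs. These classes overlapped. In gCap ECs it was at 52.9, 38.5, 34.3 and 23.6 CPM, below all arterial and venous libraries. aCap ECs held 1.76 to 5.61 CPM, from 8 UMIs in all, against 0 to 1.80 CPM in T cells. At this depth aCap Nos3 was near background.

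Ptgs1 was highest in venous ECs (317, 279, 372 and 387 CPM), followed by platelets (167 to 301 CPM) and gCap ECs (113 to 205 CPM). Ptgs2 had another source. Neutrophils held 55.0% of its 5207 UMIs, at 2139 to 3690 CPM, and ECs held 10.8%. A class named mast cells or basophils, with 20, 11, 3 and 0 cells, was at 1332, 2592 and 2278 CPM in the libraries that held it. Among ECs it was a venous gene, at 355, 517, 226 and 66.9 CPM, against 0.546, 2.54, 1.32 and 14.3 CPM in gCap ECs. Ptgis was highest in fibroblasts (320 to 449 CPM), apart from venous ECs (223 to 263 CPM), which were apart from arterial ECs (0 to 193 CPM). In gCap ECs it was at 11.5 to 36.0 CPM. Of the endothelial classes, venous ECs thus had the highest mean of each of the 3 enzymes.

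Ace was found in nearly every capillary cell. It was at 1115, 996, 1096 and 1229 CPM in gCap ECs, with a UMI in 94.6% to 98.2% of cells, and at 976 to 1476 CPM in arterial ECs. Venous ECs followed at 531 to 788 CPM, and lymphatic ECs were at 0 to 45.8 CPM. T cells held a UMI in 2.10% to 3.14% of cells, at a median of 6101 to 6740 UMIs a cell against 3801 to 5022 in gCap ECs. Outside endothelium, monocytes held 15.7% of the 19476 Ace UMIs. Their cluster led by Cd300e and Treml4 was at 692 to 838 CPM, apart from that led by Ly6c2 and Ccr2 at 123 to 168 CPM.

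**Figure D1:**
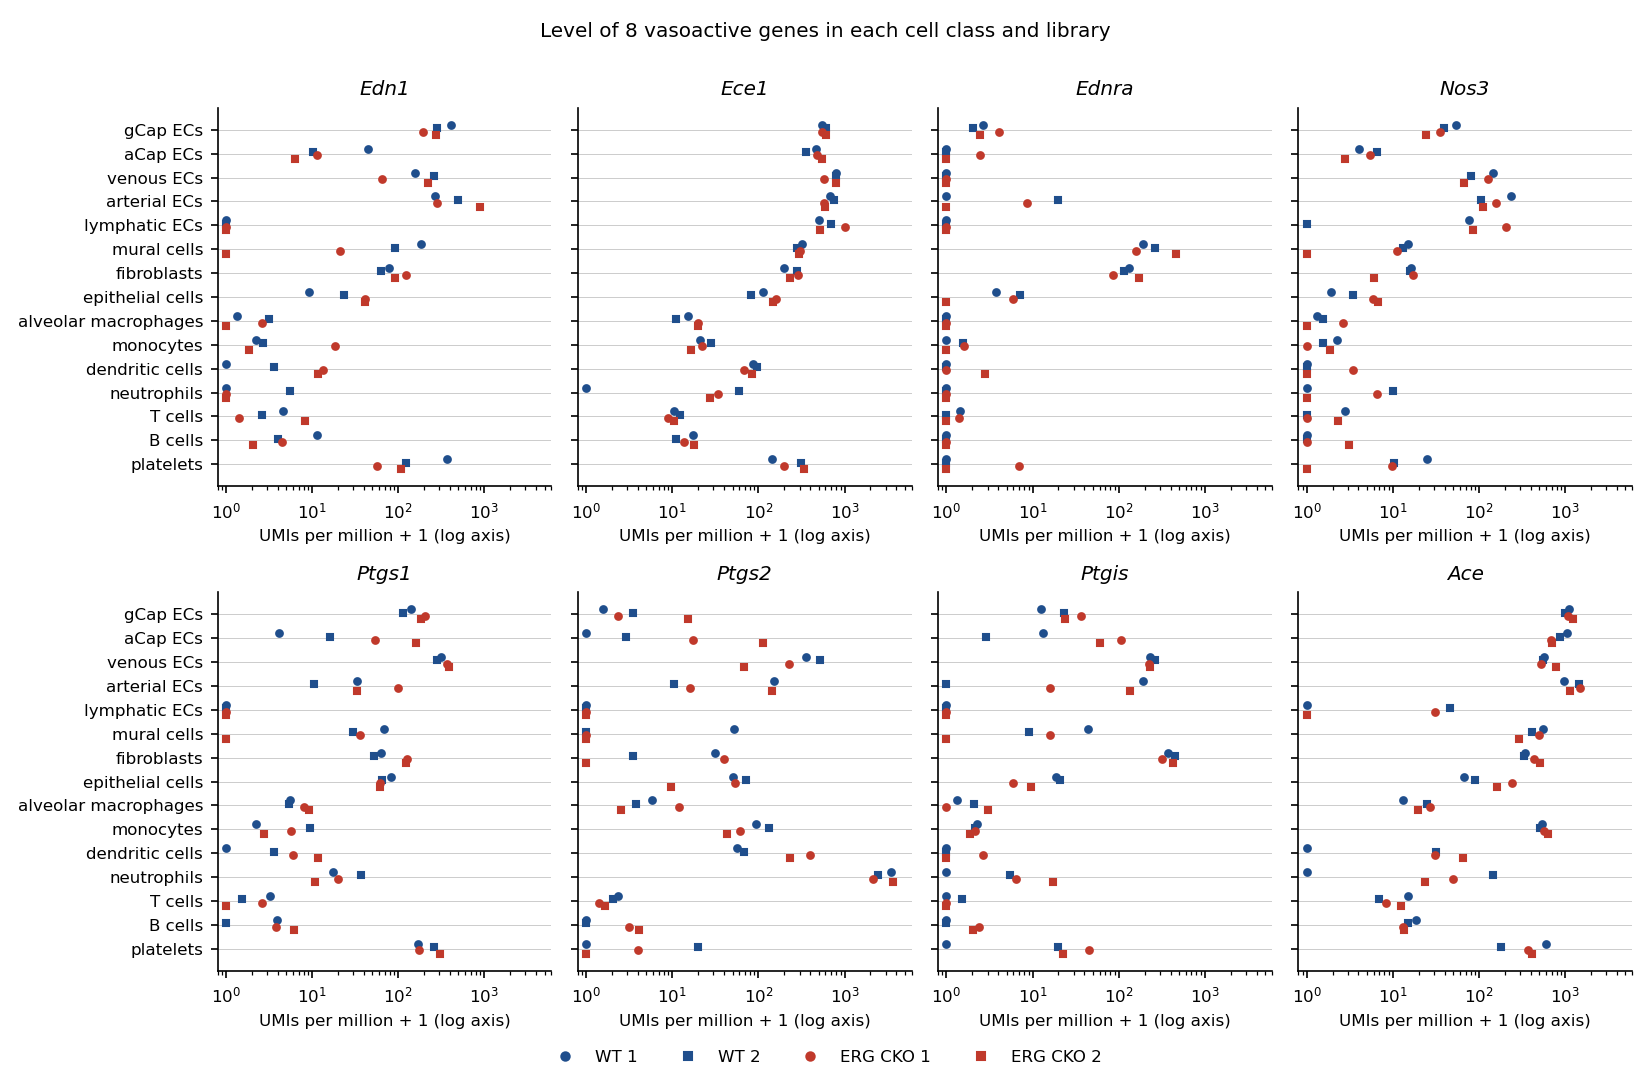
Level of the 8 genes in 15 cell classes. The x axis is CPM plus 1 on a log axis, each point is 1 library, circles are replicate 1, squares replicate 2, blue WT and red ERG CKO. Edn1 lies between 192 and 410 in gCap ECs and at or under 43.1 in aCap ECs, Ednra is high only in mural cells and fibroblasts among the classes drawn, and of these classes only neutrophils reach 2139 or more for Ptgs2.

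WT and ERG CKO were compared per class on counts summed by library with the edgeR quasi-likelihood test, with Benjamini-Hochberg adjustment over all genes of the class. With 2 mice a group, p-values measure the spread between these mice, and an exact permutation test could not go below 0.333. In 34 tests of a member in ECs, gCap, aCap, venous, arterial or mural cells, 2 passed an adjusted p of 0.05. Ptgs1 and Ptgis both rose in aCap ECs. In ECs as a whole 0 of 7 tested members passed, against 2.89% of all 10711 genes tested, with 3 members at an unadjusted p under 0.05 and 0 by DESeq2. The counts in gCap ECs were 0 of 6 members, against 2.58% of 9800 genes, 4 members at an unadjusted p under 0.05 and 0 by DESeq2. For aCap ECs 2 of 4 tested members passed, against 10.5% of 6992 genes. The filter on low counts keeps a gene that is high enough in a single group. Ptgs1 and Ptgis were low in WT and entered the aCap test through the ERG CKO libraries. The share of 2 of 4 is thus no measure of the members. Without this filter 3 of 8 members passed in aCap ECs, against 6.82% of 13500 genes.

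**Figure D2:**
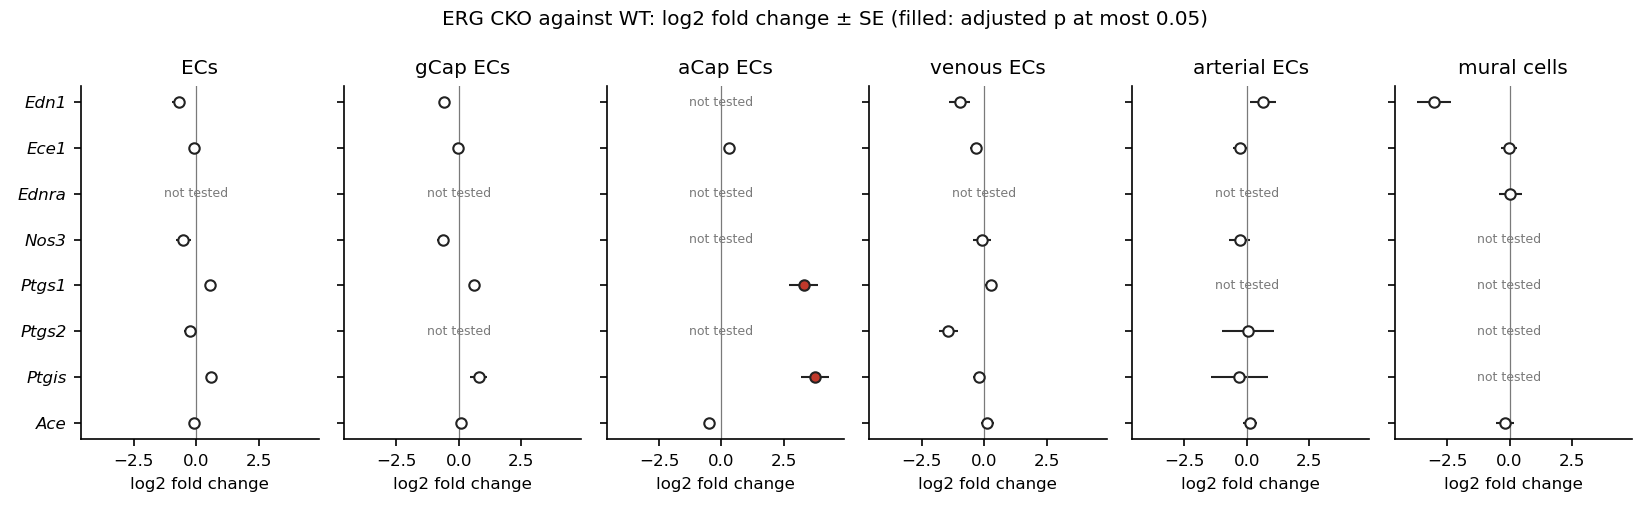
Change of the 8 genes in ERG CKO against WT. The x axis is the log2 fold change of the edgeR fit in 6 classes, bars are 1 SE, filled points passed an adjusted p of 0.05, and "not tested" marks genes below the filter on low counts. The only filled points are Ptgs1 and Ptgis in aCap ECs, at 3.29 and 3.75.

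Edn1, the ligand, had lower values in ERG CKO that did not pass the test. In gCap ECs it was at 410, 279, 192 and 276 CPM, with both ERG CKO libraries below both WT libraries, though WT replicate 2 and ERG CKO replicate 2 were close. The log2 fold change came to -0.60 (SE 0.21, adjusted p = 0.211, edgeR). In all ECs the levels were 324, 229, 134 and 218 CPM, a log2 fold change of -0.70 (SE 0.25, adjusted p = 0.199, edgeR). A single library decided these calls. Without WT replicate 2 the gCap log2 fold change was -0.86 (adjusted p = 0.0182, edgeR), and without ERG CKO replicate 2 that in ECs was -1.07 (adjusted p = 0.00901, edgeR). Values were also lower in both ERG CKO libraries in the gCap cluster led by Sema3g and Hey1 (528, 401, 232 and 329 CPM), whereas in the one led by the interferon genes Ifit1 and Cxcl10 the groups overlapped (220, 113, 146 and 104 CPM). Marker sums in gCap ECs were also lower in both ERG CKO libraries. The 15 artery markers were at 2795, 2439, 1548 and 2179 CPM, and the 12 gCap markers at 15222, 14256, 11267 and 11620 CPM. The part of these marker differences in the Edn1 values was not tested.

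Along the larger vessels Edn1 overlapped between groups. Venous ECs held 154, 257, 63.4 and 223 CPM, with only ERG CKO replicate 1 lower than the rest (log2 fold change -0.98, SE 0.43, adjusted p = 0.536, edgeR). Without ERG CKO replicate 2 the change was -1.76 with an adjusted p of 3.45e-05 (edgeR). Arterial ECs held 268, 490, 279 and 897 CPM. In ERG CKO replicate 2, 77 of the 112 arterial Edn1 UMIs came from 1 cell. aCap ECs had too few Edn1 UMIs for a test.

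Ece1, the converting enzyme, had similar values in both groups. In gCap ECs it was at 541, 610, 542 and 612 CPM, with replicate 1 of each group at the lower value (log2 fold change -0.04, SE 0.14, adjusted p = 0.953, edgeR). Across ECs edgeR gave -0.10 (SE 0.12, adjusted p = 0.784), and in venous, arterial, aCap and mural cells it lay between -0.32 and 0.31 with adjusted p from 0.383 to 1.0 (edgeR).

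Mural cells numbered 70, 48, 46 and 15, and pericyte markers made up most of their mural signal, at 5305 to 12343 CPM summed over 8 markers against 567 to 920 CPM for 8 smooth muscle markers. Of 4 tested members 0 passed, against 0.0927% of 4317 genes, with 1 member at an unadjusted p under 0.05 and 0 by DESeq2. Ednra had a log2 fold change of 0.02 (SE 0.46, adjusted p = 1.0, edgeR). Its direction turned without ERG CKO replicate 2, at -0.50, and without WT replicate 1, at -0.10. The median UMIs of a mural cell were 5747, 3644, 1947 and 1044.

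Edn1 was also found under mural names, at 183, 89.8, 20.1 and 0 CPM, both ERG CKO libraries lower (log2 fold change -3.02, SE 0.69, adjusted p = 0.308, edgeR). Without ERG CKO replicate 2 this was -2.80 (adjusted p = 0.0138, edgeR) and without WT replicate 2 it was -3.40 (adjusted p = 0.00815, edgeR). Endothelial transcripts were found there too, but their levels overlapped between the groups. The summed level of 12 endothelial markers was 9029, 5957, 7023 and 3283 CPM. Their part in the Edn1 values was not tested. Of all mural barcodes 51.4% held at least 3 UMIs of Cdh5, Pecam1 and Cldn5 together, against 3.89% of T cells, and this share was 61.4%, 47.9%, 50.0% and 20% by library. In the 27, 25, 23 and 12 mural barcodes with fewer, Edn1 had 0, 1, 1 and 0 UMIs. Ednra was at 323, 293, 300 and 571 CPM in these, above its level over all mural barcodes in each library. Ace was at 29.3 to 80.6 CPM in these against 295 to 549 CPM over all, and Nos3 had no UMI. Ace was thus lower in mural barcodes with few endothelial transcripts than over all of them in each library, and Edn1 was lower in both WT libraries and at the same level in ERG CKO.

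The same held for fibroblasts, of which 39.7% held at least 3 such UMIs. In the others Edn1 and Nos3 had no UMI, Ednra was at 163 to 189 CPM and Ptgis at 482 to 685 CPM. Among the 7 members tested in fibroblasts 0 passed, against 0.802% of 7857 genes, with 3 at an unadjusted p under 0.05 and 0 by DESeq2. Ptgs1 came nearest, at 62.4, 51.5, 126 and 122 CPM (log2 fold change 1.11, SE 0.26, adjusted p = 0.070, edgeR) but passed without ERG CKO replicate 2 (1.14, adjusted p = 0.0118, edgeR). In barcodes with few endothelial UMIs it was at 25.2, 19.7, 26.6 and 68.3 CPM, from 10, 4, 8 and 3 UMIs. Platelets also express Ptgs1, and platelet markers summed to 82.4, 71.1, 447 and 806 CPM over all fibroblasts. Their part in the Ptgs1 values was not tested.

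**Figure D3:**
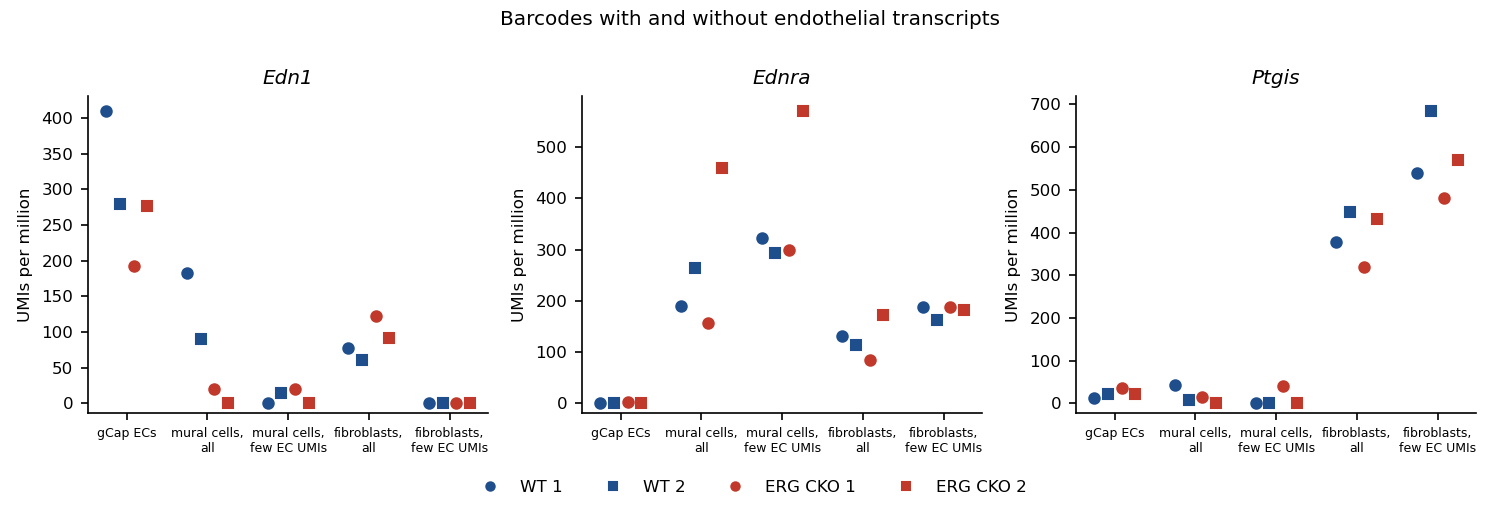
Edn1, Ednra and Ptgis in gCap ECs and in mural cells and fibroblasts, for all barcodes and for those with fewer than 3 UMIs of Cdh5, Pecam1 and Cldn5. The y axis is CPM, each point 1 library, circles replicate 1, squares replicate 2, blue WT, red ERG CKO. Edn1 falls to at most 1 UMI a library in mural barcodes with few endothelial UMIs and to 0 in such fibroblasts, while Ednra and fibroblast Ptgis are higher there.

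Nos3 values leaned lower in ERG CKO but did not pass. gCap ECs held 52.9 and 38.5 CPM in WT and 34.3 and 23.6 CPM in ERG CKO (log2 fold change -0.65, SE 0.24, adjusted p = 0.248, edgeR). The groups did not overlap, but their nearest libraries were 38.5 and 34.3 CPM. In all ECs the values overlapped, at 60.8, 37.3, 43.6 and 24.9 CPM (log2 fold change -0.51, SE 0.31, adjusted p = 0.498, edgeR). Arterial and venous log2 fold changes were -0.29 (SE 0.43) and -0.08 (SE 0.36). Replicate 2 of each group, which carried Ddx3y, was the lower in all of these classes. With a replicate block, which is also a block on sex, Nos3 did pass in gCap ECs and in ECs (edgeR).

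Ptgs1 rose in aCap ECs of ERG CKO. Its level was 3.08 and 15.0 CPM in WT and 53.3 and 162 CPM in ERG CKO, from 1, 8, 36 and 92 UMIs, and 2.33%, 6.94%, 22.4% and 46.3% of aCap cells held a UMI. All ERG CKO values exceeded all WT values, and ERG CKO replicate 2 was well above replicate 1. In the edgeR fit the gene was up by 3.29 on the log2 scale (SE 0.59, adjusted p = 0.000924), and DESeq2 gave an adjusted p of 0.0592. Leaving out 1 library at a time kept the call, at 2.33 with ERG CKO replicate 2 omitted, 2.76 with WT replicate 1 omitted, 3.89 with ERG CKO replicate 1 omitted and 4.98 with WT replicate 2 omitted. Without alignment, where WT and ERG CKO cells lay mostly in different aCap clusters, it was 3.48 (adjusted p = 0.000227, edgeR), a value that supports no call. The summed level of vein markers in aCap ECs was 169, 172, 434 and 391 CPM, that of 8 platelet markers 58.5, 127, 286 and 61.6 CPM. Per 100 vein marker UMIs, aCap ECs held 1.82, 8.7, 12.3 and 41.4 Ptgs1 UMIs. Venous ECs held 2.04 to 4.24 and gCap ECs 12.1 to 16.8. Per 100 platelet marker UMIs, aCap ECs held 5.26, 11.8, 18.7 and 263, against 0.799 to 1.23 in platelets. The part of transcripts from other cells in the Ptgs1 rise was not tested.

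In the other ECs Ptgs1 differences were smaller. gCap ECs held 138 and 113 CPM in WT and 205 and 183 CPM in ERG CKO (log2 fold change 0.60, SE 0.16, adjusted p = 0.0873, edgeR), with no overlap in any of the 3 gCap clusters. Without WT replicate 1 the change was 0.75 (adjusted p = 0.0405, edgeR). In ECs as a whole it was 0.55 (SE 0.14, adjusted p = 0.0969, edgeR), and 0.63 (adjusted p = 0.0355, edgeR) without ERG CKO replicate 2. Venous ECs, where Ptgs1 was highest, gave 0.28 (SE 0.25, adjusted p = 0.859, edgeR). The change in aCap ECs exceeded that in gCap ECs by 2.60 on the log2 scale (SE 0.61, adjusted p = 0.00712, edgeR interaction test with the mouse as block). In this comparison 3 of 7 tested members passed, against 6.33% of 9287 genes.

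Ptgis also rose in aCap ECs. It was at 12.3 and 1.87 CPM in WT and at 105 and 59.8 CPM in ERG CKO, from 4, 1, 71 and 34 UMIs in 3, 1, 33 and 22 cells. The groups lay far apart, and no cell held more than 7 UMIs. In the edgeR fit Ptgis was up by 3.75 on the log2 scale (SE 0.55, adjusted p = 0.000167), and the call was kept under each of 12 alternatives, between 2.72 without WT replicate 2 and 5.29 without WT replicate 1. These 12 include the run without alignment, which set different aCap clusters against each other and supports no call. ERG CKO replicate 1 and replicate 2 left out gave 3.25 and 4.10. In gCap ECs Ptgis was at 11.5, 22.3, 36.0 and 22.8 CPM, with WT replicate 2 next to ERG CKO replicate 2 (0.80, SE 0.34, adjusted p = 0.326, edgeR, and 1.35 with an adjusted p of 0.0449 without WT replicate 2). Venous ECs held 229, 263, 223 and 230 CPM (-0.20, SE 0.25, adjusted p = 0.918, edgeR). The aCap change exceeded the gCap change by 3.05 (SE 0.63, adjusted p = 0.00234, edgeR), but by 1.39 (adjusted p = 0.432, edgeR) without WT replicate 2 and 2.02 (adjusted p = 0.0609, edgeR) without alignment.

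Markers of the other Ptgis sources were also found in aCap ECs. Fibroblast markers summed to 49.3, 52.4, 72.5 and 49.3 CPM there, and vein markers to 169, 172, 434 and 391 CPM. Per 100 fibroblast marker UMIs, aCap ECs held 25, 3.57, 145 and 121 Ptgis UMIs, against 2.56 to 3.66 in fibroblasts. Per 100 vein marker UMIs they held 7.27, 1.09, 24.2 and 15.3, against 1.81 to 2.53 in venous ECs. The part of such transcripts in the Ptgis rise was not tested. In all ECs Ptgis was at 37.1, 41.1, 70.6 and 48.6 CPM (0.59, SE 0.21, adjusted p = 0.201, edgeR), and without ERG CKO replicate 2 the change was 0.83 (adjusted p = 0.0144, edgeR).

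Ptgs2, the inducible cyclooxygenase, did not pass the test in venous ECs, its main endothelial class. Venous ECs held 355 and 517 CPM in WT and 226 and 66.9 CPM in ERG CKO, from 85, 169, 139 and 9 UMIs, and a UMI was found in 50.0%, 46.8%, 28.8% and 25.0% of cells. The groups did not overlap, and ERG CKO replicate 2, with 20 venous cells, was the lowest. The log2 fold change of -1.43 (SE 0.37) did not pass (adjusted p = 0.180, edgeR), and 0 of 7 members passed in venous ECs, against 0.185% of 4878 genes, with 2 at an unadjusted p under 0.05 and 0 by DESeq2. It passed on leaving out ERG CKO replicate 1 (-2.83, adjusted p = 5.59e-09), ERG CKO replicate 2 (-1.0, adjusted p = 0.0139) or WT replicate 1 (-1.72, adjusted p = 0.00276, all edgeR). In aCap ECs Ptgs2 was at 0, 1.87, 16.3 and 113 CPM and was not tested. ERG CKO replicate 2 held 64 UMIs there, 49 of them in 1 cell.

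The venous and gCap changes of Ptgs2 differed by -3.30 (SE 0.74, adjusted p = 0.00574, edgeR). This was the single member of 7 to pass between these classes, against 0.891% of 9207 genes. It rested on ERG CKO replicate 2, without which the difference was -0.74 (adjusted p = 0.996, edgeR). In gCap ECs 10 of the 20 Ptgs2 UMIs of that library were in 1 cell. Between gCap and arterial ECs 0 of 7 members differed, against 0.136% of 8797 genes, with 1 member, Edn1, at an unadjusted p under 0.05. Without ERG CKO replicate 1 that Edn1 difference was 1.54 (adjusted p = 0.000565, edgeR), against 1.02 (SE 0.38, adjusted p = 0.604) with all libraries. DESeq2 was not run for differences between classes. Within arterial ECs, with 15 to 22 cells a library, 0 of 6 members passed, 0 at an unadjusted p under 0.05 and 0 by DESeq2, and of all 2174 genes 0 passed (0%), with 173 at an unadjusted p under 0.05.

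Outside endothelium and mural cells, 33 tests of a member in 10 further classes gave 1 call, against 0.193% over 62636 tests of all genes there. Ptgs2 rose in dendritic cells, at 55.1 and 66.9 CPM in WT and 391 and 231 CPM in ERG CKO (log2 fold change 2.35, SE 0.31, adjusted p = 0.00615, edgeR). In this class 0.734% of 5044 genes passed. In ERG CKO replicate 1, 130 of 473 UMIs were in 1 cell, and without ERG CKO replicate 2 the adjusted p was 0.166 at 2.68 (edgeR). Neutrophils, the main source, were at 3415, 2418, 2139 and 3690 CPM (0.01, SE 0.31, adjusted p = 1.0, edgeR).

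Ace had similar values in both groups in gCap ECs (0.10, SE 0.13, adjusted p = 0.836, edgeR) and in ECs as a whole, at 1036, 935, 899 and 1028 CPM (-0.07, SE 0.13, adjusted p = 0.852, edgeR). In aCap ECs it was at 1062 and 880 CPM in WT and 696 and 709 CPM in ERG CKO, with no overlap (-0.48, SE 0.17, adjusted p = 0.0906, edgeR). A UMI was found in 100% of WT aCap cells and in 89.7% and 90.5% of ERG CKO aCap cells. The aCap change lay below the gCap change by -0.61 (SE 0.15, adjusted p = 0.0109, edgeR). It was -0.64 (adjusted p = 0.0512) without ERG CKO replicate 1, -0.52 (adjusted p = 0.161) without ERG CKO replicate 2 and -0.53 (adjusted p = 0.0350) without alignment, all in edgeR.

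The members were read beside 5 lists of pathway genes, 71 genes of which 70 were in the matrix. All lists but that of adrenomedullin and natriuretic peptide hold members. The counts of each list are given with the median log2 fold change of its tested genes beside that of all genes tested. The shares of all genes that passed, 2.89% in ECs, 2.58% in gCap and 10.5% in aCap ECs, are the background for these counts. In the prostanoid list of 21 genes, 10 were tested in aCap ECs, of which 4 rose and 1 fell (median 0.21 against 0.02). In gCap ECs 2 of 9 rose and 0 fell (median 0.28 against 0.00), and in all ECs 2 of 14 rose and 1 fell (median -0.01 against 0.01). The prostanoid genes that rose in aCap or gCap ECs were low or absent in WT there. They reached the filter on low counts through the ERG CKO libraries, so these shares are no measure of the list. The genes that moved were at the release, synthesis and receptor steps of the pathway around the members.

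Pla2g4a, the phospholipase upstream of both cyclooxygenases, rose in capillaries. In gCap ECs it was at 0.546, 0.507, 13.2 and 23.6 CPM (log2 fold change 4.87, SE 0.64, adjusted p = 0.00329, edgeR). Without alignment it did not reach the filter on low counts in gCap ECs and had no test there. aCap ECs held no UMI in WT and 40.0 and 54.6 CPM in ERG CKO, at least 13.5-fold higher than the 3.49 CPM that 3 UMIs over both WT libraries would give (adjusted p = 0.000101, edgeR). Venous ECs held 100, 107, 63.4 and 104 CPM, the highest endothelial level in WT, with the groups overlapping. Blood cell transcripts differed between the groups in gCap ECs, where 6 erythroid markers summed to 37.6, 48.2, 2962 and 4211 CPM and 8 platelet markers to 34.9, 44.6, 166 and 66.4 CPM. The part of the erythroid transcripts in the gCap results was not tested.

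Tbxas1, thromboxane synthase, had the clearest separation. In aCap ECs it had 0 UMIs in both WT libraries and 83 and 61 UMIs, in 50 and 36 cells, in ERG CKO, that is 123 and 107 CPM. This was at least 33.0-fold higher than the same limit (adjusted p = 1.51e-06, edgeR). gCap ECs held 0, 2.54, 27.2 and 35.7 CPM (4.46, SE 0.56, adjusted p = 0.00298, edgeR), and venous ECs at most 3.25 CPM. Without alignment Tbxas1, too, fell under the filter in gCap ECs and had no test. Platelets and alveolar macrophages also express Tbxas1. Per 100 platelet marker UMIs, aCap ECs of ERG CKO held 43.0 and 174 Tbxas1 UMIs against 0.562 to 1.14 in platelets, gCap ECs 16.4 and 53.8, and per 100 alveolar macrophage marker UMIs 395 and 339 against 0.452 to 0.605 in those macrophages.

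Tbxa2r, the thromboxane receptor, fell in aCap ECs and in ECs as a whole. aCap ECs held 111 and 127 CPM in WT and 5.92 and 1.76 CPM in ERG CKO, from 36, 68, 4 and 1 UMIs (log2 fold change -4.84, SE 0.44, adjusted p = 1.51e-06, edgeR). In all ECs it fell by 1.97 on the log2 scale (SE 0.24, adjusted p = 0.0123, edgeR). In aCap ECs the calls of Tbxas1, Tbxa2r and Pla2g4a were kept on leaving out each library in turn and by DESeq2.

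**Figure D4:**
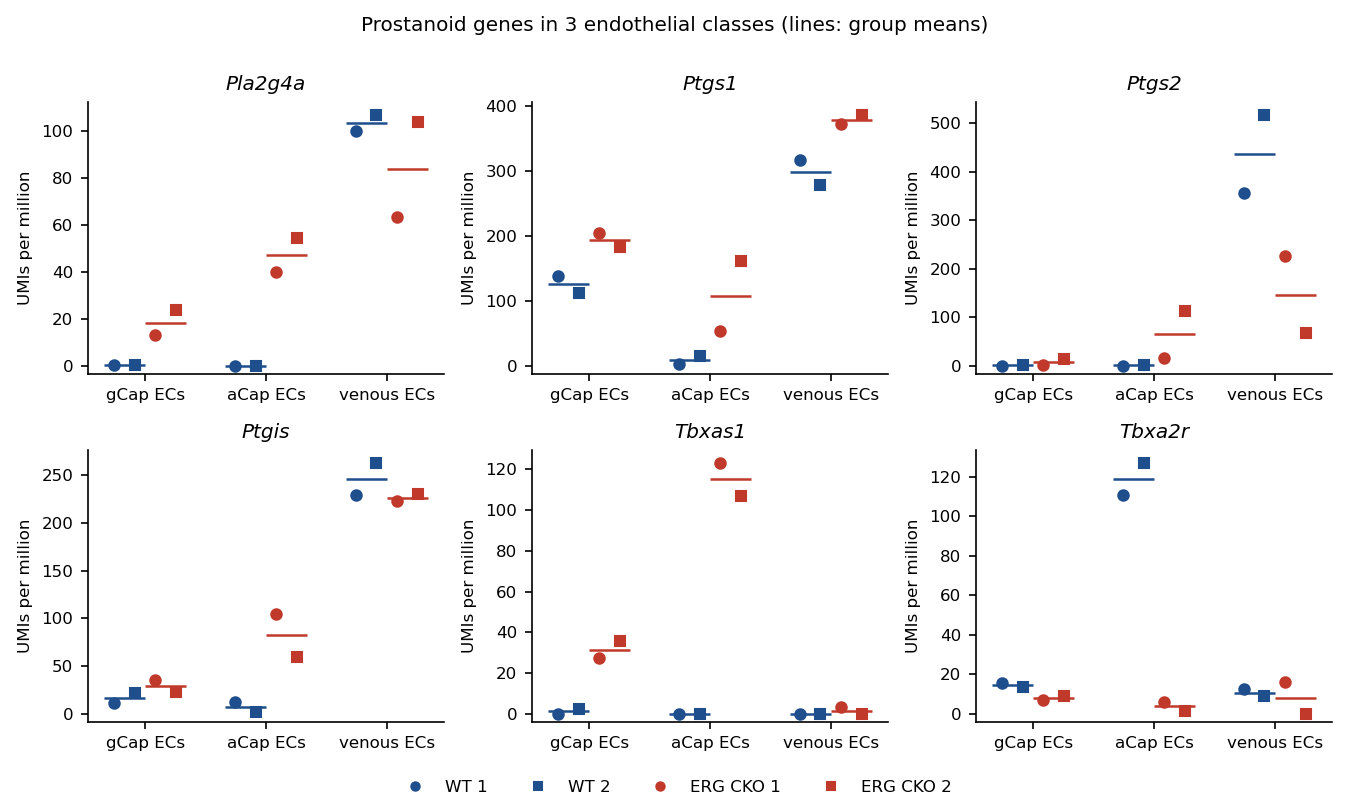
Prostanoid genes in gCap, aCap and venous ECs. The y axes, each on its own scale from 0, are CPM, points are libraries (circles replicate 1, squares replicate 2, blue WT, red ERG CKO) and lines are group means. In aCap ECs Pla2g4a and Tbxas1 are at 0 in both WT libraries and at 40.0 to 54.6 and 107 to 123 in ERG CKO, Tbxa2r goes from 111 and 127 to 5.92 and 1.76, and venous Ptgs1 and Ptgis change little.

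In the endothelin list of 9 genes, the receptor Ednrb moved in opposite directions in the capillary classes. It rose in gCap ECs, from 8.73 and 7.10 to 29.4 and 72.8 CPM (2.58, SE 0.43, adjusted p = 0.0124, edgeR), and was 1.82 with an adjusted p of 0.311 without alignment. Ednrb is a leading gene of the aCap cluster. The 15 aCap markers summed to 2348, 2378, 2701 and 3642 CPM in gCap ECs, higher in both ERG CKO libraries. The part of aCap transcripts in the gCap rise of Ednrb was not tested. Ednrb fell in aCap ECs, from 2337 and 2093 to 938 and 1774 CPM (-0.73, SE 0.22, adjusted p = 0.0443, edgeR). The fall rested on ERG CKO replicate 1, without which it was -0.36 (adjusted p = 0.301, edgeR), and without WT replicate 1 it was -0.67 (adjusted p = 0.0523, edgeR). Ednrb was the highest non-member of its list in ECs, and Edn3, another ligand, in mural cells, at 47.9, 36.7, 55.3 and 98.5 CPM. Of list genes tested, 1 of 3 rose in gCap ECs (median -0.04 against 0.00), 1 of 2 fell in aCap ECs (median -0.21 against 0.02), and 0 of 4 passed by edgeR or DESeq2 in ECs or in mural cells, with 1, Edn1, at an unadjusted p under 0.05 in each.

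Of the 16 genes of nitric oxide and cGMP signalling, 12 were tested in ECs, where 2 rose (median 0.07 against 0.01). Nos2, the inducible synthase, was at 4.08, 2.20, 13.5 and 18.6 CPM (2.31, SE 0.38, adjusted p = 0.0263, edgeR) and did not pass without WT replicate 2 (1.90, adjusted p = 0.103). Gucy1b1, a guanylyl cyclase subunit, was at 17.8, 18.8, 38.9 and 32.7 CPM (0.94, SE 0.19, adjusted p = 0.0451, edgeR). It did not pass without ERG CKO replicate 1 (0.76, adjusted p = 0.0817), WT replicate 1 (0.90, adjusted p = 0.198) or WT replicate 2 (0.97, adjusted p = 0.168), nor by DESeq2 (adjusted p = 0.143). In gCap ECs 0 of 12 passed by edgeR or DESeq2 and 5 were at an unadjusted p under 0.05 (median -0.01 against 0.00).

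In aCap ECs 7 genes of that list were tested, of which 1 rose and 2 fell (median -0.11 against 0.02). Cav1, the caveolar protein that binds and restrains Nos3, fell from 1312 and 1424 to 627 and 597 CPM (-1.18, SE 0.17, adjusted p = 0.000120, edgeR). Ddah2, which degrades an inhibitor of nitric oxide synthases, fell from 237 and 238 to 142 and 157 CPM (-0.69, SE 0.19, adjusted p = 0.0234, edgeR). The adjusted p of Ddah2 was 0.159, 0.0615 and 0.122 without ERG CKO replicate 1, WT replicate 1 and WT replicate 2, at -0.64, -0.71 and -0.68. Gch1, which makes a cofactor of these enzymes, rose from 9.24 and 1.87 to 29.6 and 31.7 CPM (2.62, SE 0.64, adjusted p = 0.0105, edgeR). Its adjusted p was 0.260 without WT replicate 2 (1.69) and 0.0669 without ERG CKO replicate 2 (2.58). Neither Ddah2 (adjusted p = 0.260) nor Gch1 (adjusted p = 0.184) passed by DESeq2.

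Of the 12 genes of the adrenomedullin and natriuretic peptide list, 11 were in the matrix, and 2 of 4 tested fell in aCap ECs (median -1.01 against 0.02), where 10.5% of all genes passed, and 1 of 6 in ECs (median -0.28 against 0.01), where 2.89% did. Ramp2, which pairs with Calcrl as the adrenomedullin receptor, fell in aCap ECs from 4665 and 5480 to 1881 and 1848 CPM (-1.47, SE 0.17, adjusted p = 1.80e-05, edgeR). Across ECs it fell from 3681 and 4103 to 2329 and 2475 CPM (-0.74, SE 0.12, adjusted p = 0.0256, edgeR), a call lost without WT replicate 1 (-0.81, adjusted p = 0.0934) or WT replicate 2 (-0.66, adjusted p = 0.186). Calcrl fell in aCap ECs from 3181 and 2469 to 1148 and 1776 CPM (-0.97, SE 0.20, adjusted p = 0.00329, edgeR). Ramp2 is also 1 of the endothelial markers used for naming.

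In the angiotensin and kinin list of 13 genes, 0 of 3 tested passed in ECs or in gCap ECs and 0 of 2 in aCap ECs by edgeR or DESeq2, with 1, 2 and 1 genes at an unadjusted p under 0.05. Its highest non-member was Agtrap in ECs, at 65.6, 80.0, 78.1 and 114 CPM, and the receptor Agtr1a in mural cells, at 204, 233, 186 and 295 CPM. In mural cells 0 of the 25 tested genes of all lists passed, by edgeR or by DESeq2, and 2, Edn1 and Ramp2, were at an unadjusted p under 0.05. Their highest genes included Gucy1a1, the other guanylyl cyclase subunit, at 2558, 3132, 1840 and 3414 CPM, and Hpgd, which inactivates prostaglandins, at 1094 to 1618 CPM. Hpgd was also the highest prostanoid gene of ECs, at 3343, 3273, 3269 and 3968 CPM.

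The genes whose WT levels followed each member most closely over 18 classes were found by Pearson correlation of log2 CPM among 11481 genes. These are descriptions over classes that share libraries. For Edn1 they were Palmd (0.98), Sox17 (0.97) and Bmp6 (0.96), and for Ednra Tubb4a (0.99), Spon2 (0.98) and Cd248 (0.98). Ece1 was followed by Snx21 (0.97), Plcb4 (0.97) and Ptk2 (0.96), and Nos3 by Atp8b1 (0.96), Dll1 (0.94) and Fzd6 (0.93). Ptgis was most like Zhx3 (0.95), Fam198b (0.94) and Mmp2 (0.93), Ptgs1 like Tmem252 (0.88), Chrm2 (0.88) and Plscr2 (0.87). Ptgs2 was most like Hdc (0.87), Ifitm5 (0.85) and Nfkbiz (0.84), and Ace like Epha4 (0.93), Smad6 (0.91) and Heg1 (0.90).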

How the data were processed

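Whole-lung single-cell RNA-seq data were read from 1 deposited matrix of raw UMI counts for the 4 libraries. The authors made these counts on the 10x GemCode platform, with sequencing on a NextSeq 500, and the submitters' processing notes name Cell Ranger 3.1.0 and the build mm10. The annotation and the limits of the quality filter are not given in the sources used here. The lowest cell held 500 UMIs and 300 genes, and no further filter was applied. The sources differ on the dissociation, the design text naming a commercial kit and the methods Liberase and DNase with red cell lysis. Groups were taken from the genotype labels. Replicates differed by more than sampling noise, with a chi-square per degree of freedom of 15.9 in WT and 17.4 in ERG CKO. Barcodes found in more than 1 library numbered 14 cells, which were kept. Scrublet (scanpy 1.11.5) called 66 cells, 0.705%, doublets, which were kept.

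Cells were clustered in Seurat 5.3.0 (R 4.3.3) with 2000 variable genes, CCA alignment of the libraries, 30 dimensions and resolution 0.8, and ECs again with 20 dimensions and resolution 0.6. The members, the pathway genes and, for ECs, genes that differed between groups were left out of the variable genes. A name needed at least 3 markers, each in at least 10% of cells and at a log2 fold of 1 or more against all other cells (above 0 among ECs). A second class with a mean log2 fold of at least 1 barred a name, and EC names needed a mean of at least 0.3. These last 2 limits were set after the clusters were seen. EC clusters led by Igfbp3 and Esm1 (151 cells), platelet genes (140 cells) or lymphocyte genes (23 cells) stayed unnamed and count only among ECs. A low-depth cluster of 875 cells also stayed unnamed and was left out.

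Counts were summed per library and class, and the test was the quasi-likelihood one of edgeR 4.0.16 (TMM, filterByExpr, group only), in classes with at least 10 cells in every library. Benjamini-Hochberg adjustment ran over all genes of a class, with a limit of 0.05. Differences of the change between classes were tested as an interaction with the mouse as a block. DESeq2 1.42.0 was an alternative. The SE is the log2 fold change over the root of its F statistic. The steps were tested on simulated data. The members and lists were chosen with earlier results of these data known. Named genes were all members, list genes that passed in ECs, gCap, aCap or mural cells, the highest non-member of each list, and for each member the 3 genes with the most similar levels, from log2(CPM + 10) in WT among genes reaching 20 CPM. RefSeq windows served as sequence. Intervals from UMIs cover counting error only. The Edn1 values of 1 gCap cluster are not reported here.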

Additional observations from a re-analysis of the deposited data

Results flagged for a closer look

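In these results the change of a gene between WT and ERG CKO differed between endothelial classes by the edgeR interaction test with the mouse as a block. Values are the log2 fold change of the second class less that of gCap ECs.

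Between gCap and aCap ECs, 12 of 35 tested list genes differed, against 6.33% of all genes, and 3 of the 12 are members. Ptgis differed by 3.05 (SE 0.63, adjusted p = 0.00234, edgeR), Ptgs1 by 2.60 (SE 0.61, adjusted p = 0.00712) and Ace by -0.61 (SE 0.15, adjusted p = 0.0109). As given above, the Ptgis difference did not pass without WT replicate 2. The Ace difference did not pass on leaving out either ERG CKO library. Of the pathway genes, Ednrb differed by -3.34 (SE 0.26, adjusted p = 2.76e-09, edgeR) and Tbxa2r by -3.99 (SE 0.65, adjusted p = 0.000153). The adrenomedullin receptor genes Ramp2 and Calcrl differed by -1.0 (SE 0.13, adjusted p = 9.52e-06) and -0.82 (SE 0.16, adjusted p = 0.00132), and the second did not pass without ERG CKO replicate 1 (-0.55, adjusted p = 0.0733). Cav1 differed by -0.90 (SE 0.15, adjusted p = 0.000144). Gch1 differed by 3.03 (SE 0.65, adjusted p = 0.00335), but by 2.21 with an adjusted p of 0.0614 without WT replicate 2. Gucy1b1 differed by -2.39 (SE 0.62, adjusted p = 0.0165), and did not pass without ERG CKO replicate 2 (-1.81, adjusted p = 0.101) or WT replicate 2 (-1.45, adjusted p = 0.526). Without alignment its direction turned, with a call the other way (2.13, adjusted p = 0.00882). Ddah1 (-1.17, SE 0.29, adjusted p = 0.0124) and Ramp3 (-3.31, SE 0.87, adjusted p = 0.0179), which the rule for named genes does not cover, complete the 12 and were added after their values were seen.

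Between gCap and venous ECs, 3 of 34 tested list genes differed, against 0.891% of all genes. Ptgs2 differed by -3.30 (SE 0.74, adjusted p = 0.00574, edgeR), but by -0.74 (adjusted p = 0.996) without ERG CKO replicate 2. Pla2g4a differed by -5.21 (SE 0.71, adjusted p = 2.73e-07), the venous level being similar in both groups and the gCap level near 0 in WT. Without alignment it was -2.86 (adjusted p = 0.262). Npr3, added in the same way, differed by 0.92 (SE 0.25, adjusted p = 0.0498).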

How the results depend on the processing

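Over 55 results for single genes, 581 of 650 alternative values kept their direction and side of the threshold, 36 lost a call, 28 gained one and 5 reversed. Reversals were Ednra in mural cells without a filter on low counts (-0.07) and on leaving out a library (-0.50 to 0.79), Ptgs2 in ECs on leaving out a library (-0.51 to 0.06) and Gucy1b1 between gCap and aCap ECs without alignment (2.13, adjusted p = 0.00882, edgeR). For counts of calls, the cause of the moves was not tested. Without a filter on low counts, members called were 3 in ECs, 2 in gCap, 1 in venous, 1 in mural and 5 in the other classes. List genes called were then 16 in ECs, 10 in gCap and 1 in mural cells, and all genes 1168, 673 and 39, against 310, 253 and 4. The same replicate number stood in both groups and went with sex, replicate 1 carrying Xist and replicate 2 Ddx3y. A replicate block is thus also a block on sex. The 2 pairs are not known to share a litter or day, and the correlation of their deviations was 0.26 over all genes and 0.13 without sex-linked genes. With a replicate block, members called were 2 in ECs (Ptgs1, adjusted p = 0.0219, and Nos3, 0.0488), 2 in gCap (Ptgs1, 0.0131, and Nos3, 0.0483), 1 in mural (Edn1, 0.0198) and 2 in other classes, list genes 11, 9 and 1, and all genes 777, 521 and 12 in ECs, gCap and mural cells. DESeq2 called 1 member, 7 list genes and 373 genes in aCap (733 by edgeR), 164 genes in gCap and 2 in mural cells. Without alignment, gCap ECs had 0 list genes and 2 genes called (Pla2g4a and Tbxas1 were under the filter there), aCap ECs 1127 genes, with Edn1 higher (1.22, adjusted p = 0.00934), and 3 members differed between gCap and venous ECs. At most 10% mitochondrial UMIs gave 5 list genes in gCap and 2 genes in mural cells. Lower resolution gave 5 list genes in gCap and 0 members between gCap and venous ECs. In alternatives chosen after seeing the data, adding the Igfbp3 and Esm1 cluster to gCap gave 7 list genes and 380 genes, and mural cells with fewer than 3 endothelial UMIs gave 1 list gene and 28 genes. Leaving out 1 library in turn, members called ranged from 0 to 3 in ECs, 0 to 2 in gCap, 2 to 4 in aCap, 0 to 2 in venous, 0 to 1 in mural and 2 to 3 in other classes. List genes ranged from 2 to 14 in ECs, 4 to 8 in gCap and 0 to 2 in mural cells, all genes from 77 (without WT replicate 2) to 703 (without ERG CKO replicate 2) in ECs and 8 to 42 in mural cells, and members that differed from gCap ECs 0 to 1 in venous and 0 to 1 in arterial ECs. A lone library left in a group is assumed to vary like the other group. Lymphatic ECs, interstitial macrophages and mast cells or basophils held too few cells for a test.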
